A study of Mus musculus with 4 samples.

Results

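The genes described here are the mouse kainate receptor subunits Grik1, Grik2, Grik3, Grik4 and Grik5 and the delta receptor subunit Grid1, in RNA brought down with an antibody against CPEB3. They were chosen by name: every non-control probe whose gene name in the array files is one of these 6 symbols was taken, which gave 9 probes of 55681, and 6 genes of 34821 names. Grik1, Grik2 and Grik3 have 2 probes each, and Grik4, Grik5 and Grid1 have 1 probe each. The rule uses names and no measured value, but the set itself was proposed with earlier results of these data known. Of the 9 probes, 8 carry a RefSeq accession that the GRCm38 gene table lists, and all 8 have the same symbol there.

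RNA that came down with an antibody was measured on 1-colour Agilent mouse arrays, an RNA immunoprecipitation. Both groups are RNA from corticohippocampal lysate of 8-week-old male mice of the inbred strain C57BL/6, with no genetic change or drug named in the labels. Beads with CPEB3 IgG (2 arrays) or with control IgG (2 arrays) were left in the lysate for 3 h, and 0.2 ug of the RNA on them was amplified, labelled with Cy3 and hybridised. The labels do not say whether the replicates are separate animals, separate lysates or pools, and p-values therefore reflect only how far these arrays lie apart, which may be technical. No input array was analysed here, so every difference is CPEB3 IgG relative to control IgG, and more bound RNA per transcript cannot be told apart from more of that transcript in the lysate used. Likewise, in lysate of mixed cells, fewer cells of a type and less RNA per cell cannot be told apart.

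Kainate receptors are glutamate-gated cation channels of 4 subunits. GluK1, GluK2 and GluK3, encoded by Grik1, Grik2 and Grik3, can form channels on their own, while GluK4 and GluK5, encoded by Grik4 and Grik5, bind glutamate with high affinity and need one of the former as a partner. They act on both sides of the synapse and are known for slow currents and for control of transmitter release, for example at mossy fibre synapses of the hippocampus. Delta receptors are related in sequence but act mainly as adhesion receptors: GluD1, encoded by Grid1, is widely expressed in the forebrain. CPEB3, cytoplasmic polyadenylation element binding protein 3, binds uridine-rich stretches of mRNA, mostly in 3′ untranslated regions, and regulates translation of synaptic mRNAs.

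The probes are 60 bases long, in the sense of the mRNA, with T in place of U. Since this family's values turned on which probe of a gene was read, the 30 bases with the most T are shown for each of the 9 probes, called or not. Capitals mark runs of at least 3 T, and Start is the position on the transcript that the files give.
Grik1 probe at Start 2688: ttccttatattagcaaaatgtacagacatt
Grik1 probe at Start 3511: tattacttgaggagtgaaactgaatcTTTT
Grik2 probe at Start 1258: agtctcctccatcatcgagaagtggtcgat
Grik2 probe at Start 4815: ggggtcttaggatctcaaagttagaatctt
Grik3 probe at Start 2957: tcttgtctatggcTTTctgaagctgtgaag
Grik3 probe at Start 8741: attaTTTTccTTTTTaagacactgtgatat
Grik4 probe at Start 3353: attgatggtgtcatcagttgaattccccct
Grik5 probe at Start 3705: ttctctcTTTTTTggggggagaaacctcag
Grid1 probe at Start 2980: aaacacaggtcgcccaatgggggactgTTT
Whole probes hold 24 T of 60 for Grik3 at Start 8741, 20 for Grik1 at Start 3511, and 16 for Grik1 at Start 2688, Grik2 at Start 4815, Grik3 at Start 2957 and Grik5. Those of Grik2 at Start 1258 and Grik4 hold 12, and that of Grid1 holds 10. Of all tested probes, 10.0% have at least 24 T and 32.0% at least 20, so only the Grik3 probe at Start 8741 is near the T-rich end of the array. Whether a probe lies in coding sequence or in an untranslated region was not analysed here, because no annotation of the files' build was used.

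Levels below are log2 signals minus the log2 of the array's 75th percentile, so that 0 is the signal that 75% of probes lie under on that array. A probe was called higher or lower where limma's test, adjusted by Benjamini-Hochberg over the 40616 tested probes, gave adjusted p under 0.05. Of the 9 probes, 4 were called higher with CPEB3 IgG, 0 were called lower and 5 were not called. They are the Start 8741 probe of Grik3, the Start 3511 probe of Grik1 and the probes of Grik5 and Grik4. Over all tested probes 15.8% were called higher and 18.9% lower, 34.7% in all. All 9 probes were well above background on all 4 arrays, so none entered through 1 group only. The median log2 difference of the 9 probes was 0.75, beside −0.19 over all tested probes. The groups did not overlap with CPEB3 IgG higher at 5 of the 9 probes and with CPEB3 IgG lower at 1, where 28.6% and 42.7% of all tested probes did so, 71.3% in all.

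**Figure D1:**
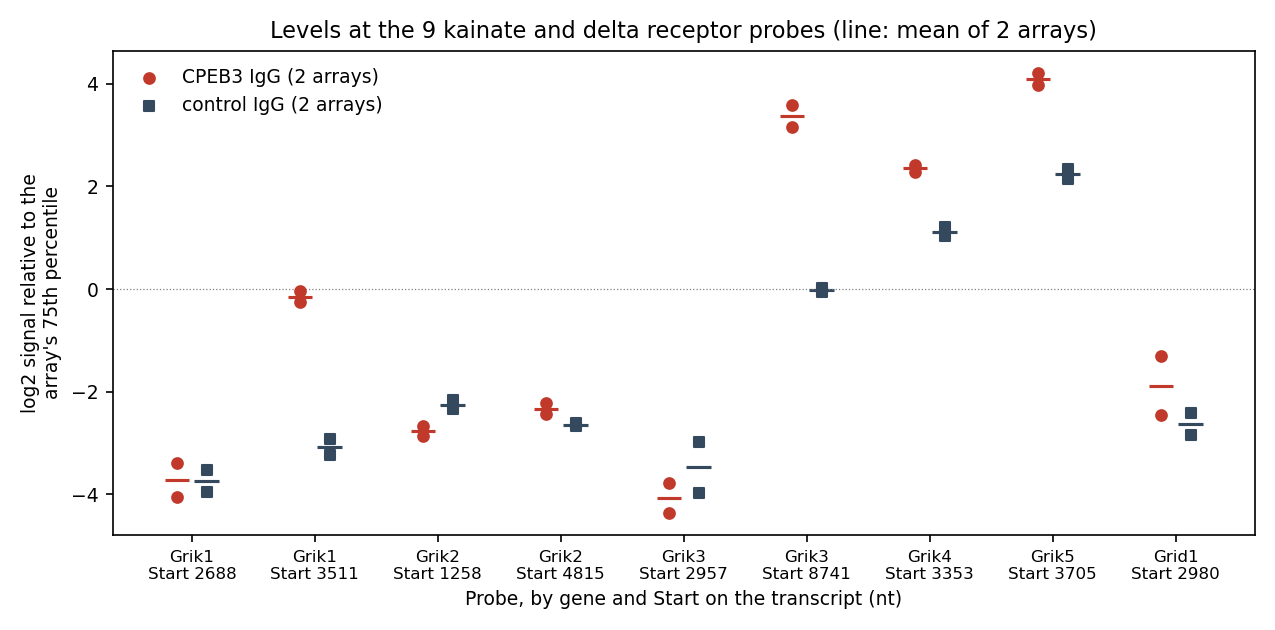
Level of each of the 9 probes on every array (y axis: log2 signal over the array's 75th percentile; x axis: gene and Start on the transcript in nt). Circles are the 2 CPEB3 IgG arrays, squares the 2 control IgG arrays and lines their means. The groups are far apart at Grik1 Start 3511, Grik3 Start 8741, Grik4 and Grik5, and lie close together or overlap at the other 5 probes.

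Grik3 encodes GluK3, a subunit of channels with a comparatively low affinity for glutamate that has been placed at presynaptic sites. Its probe at Start 8741 (NM_001081097, mm9 chr4:125391317-125391376, plus strand) read 3.57 and 3.15 on the CPEB3 IgG arrays and 0.014 and −0.064 on the control IgG arrays. In signal units these are 6035 and 3134 against 447 and 406. Both CPEB3 IgG arrays stood far above both control IgG arrays, with means of 3.36 ± 0.30 and −0.025 ± 0.055 (SD, n = 2 each). The log2 difference was 3.39 ± 0.21 (SE; 95% interval 2.82 to 3.95; limma adjusted p = 0.00527), or 10.5-fold (7.06 to 15.5). By size of the positive difference it ranked 49 among the 40616 tested probes.

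The other Grik3 probe, at Start 2957 of the same transcript record (chr4:125385533-125385592, plus strand), read −4.36 and −3.78 with CPEB3 IgG against −3.98 and −2.97 with control IgG. These groups overlapped, and the log2 difference was −0.60 ± 0.42 (95% interval −1.72 to 0.53; limma adjusted p = 0.324). The probe was dim: its signals of 24.7 and 25.7 units with CPEB3 IgG against 28.2 and 54.1 with control IgG were 1.48 to 3.06 times the dimmest detected signal of the same array, meaning the dimmest one well above background. At this probe the interval lies below the one at Start 8741, and the part of its dimness in that was not tested. The sign of the difference turned with spike-in scaling, to 0.12.

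Grik1 encodes GluK1, the subunit that is best known from sensory neurons and from inhibitory interneurons of the forebrain. Its probe at Start 3511 (NM_146072, chr16:87896231-87896290, minus strand) read −0.034 and −0.26 with CPEB3 IgG against −2.92 and −3.24 with control IgG. Signals were 495 and 295 units against 58.7 and 45.0, and the groups were well separated. The log2 difference was 2.93 ± 0.20 (95% interval 2.39 to 3.47; limma adjusted p = 0.00527), or 7.62-fold (5.23 to 11.1), and it ranked 164 among tested probes. With normexp background correction the difference was 2.02 and still passed.

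The Grik1 probe at Start 2688 belongs to another transcript record (ENSMUST00000114137, chr16:87912812-87912871, minus strand), so its Start and that of the first probe do not count from a shared origin. It read −3.38 and −4.05 with CPEB3 IgG against −3.95 and −3.52 with control IgG. The groups overlapped fully, the log2 difference was 0.022 ± 0.31 (95% interval −0.81 to 0.85; limma adjusted p = 0.963), and its signal was 1.33 to 2.93 times the dimmest detected one. The sign of so small a difference turned when CPEB3 IgG replicate 1 (−0.31) or control IgG replicate 1 (−0.19) was left out, and without scaling (−0.014).

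Grik2 encodes GluK2, the main channel-forming kainate subunit of hippocampal principal cells. Its probe at Start 4815 (NM_010349, chr10:48819269-48819325, minus strand, a span of 57 bases in the files) read −2.22 and −2.44 with CPEB3 IgG against −2.67 and −2.62 with control IgG. The groups did not overlap, but the log2 difference of 0.31 ± 0.17 (95% interval −0.15 to 0.77; limma adjusted p = 0.223) was not called. Its probe at Start 1258 of another record (NM_001111268, chr10:49243534-49243593, minus strand) read −2.67 and −2.85 with CPEB3 IgG against −2.34 and −2.16 with control IgG. Here CPEB3 IgG was the lower group without overlap, with a log2 difference of −0.51 ± 0.18 (95% interval −0.98 to −0.038; limma adjusted p = 0.0892), which was not called either and turned to 0.21 with spike-in scaling. In the main setting the upper bounds of both Grik2 intervals lie below the lower bounds of the intervals at the called Grik1, Grik3, Grik4 and Grik5 probes. For Grik4 this is by a very small margin, 0.775 at Grik2 Start 4815 against 0.778.

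Grik5 encodes GluK5, the most widely expressed of the high-affinity subunits in the brain. Its probe (Start 3705, NM_008168, chr7:25794943-25795002, minus strand) read 3.97 and 4.21 with CPEB3 IgG against 2.33 and 2.14 with control IgG. Both antibodies thus gave bright signals, 7961 and 6543 units against 2227 and 1867, with no overlap. The log2 difference was 1.86 ± 0.18 (95% interval 1.36 to 2.36; limma adjusted p = 0.00612), or 3.63-fold (2.57 to 5.12), ranking 1570.

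Grik4 encodes GluK4, the other high-affinity subunit, known for its high level in hippocampal CA3. Its probe (Start 3353, NM_175481, chr9:42328570-42328629, minus strand) read 2.28 and 2.41 with CPEB3 IgG against 1.03 and 1.20 with control IgG. The groups were apart by much more than their spread, with SDs of 0.090 and 0.12. The log2 difference of 1.23 ± 0.17 (95% interval 0.78 to 1.69; limma adjusted p = 0.0106), or 2.35-fold (1.72 to 3.22), ranked 3791. The call was lost when either CPEB3 IgG array was left out, at 1.30 (adjusted p = 0.0565) without replicate 1 and 1.17 (adjusted p = 0.0582) without replicate 2.

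Grid1 had the most uneven replicates. Its probe (Start 2980, NM_008166, chr14:36393854-36393913, plus strand) read −2.46 and −1.30 with CPEB3 IgG against −2.84 and −2.42 with control IgG, so that the lower CPEB3 IgG array lay within the control range. The SD of the CPEB3 IgG arrays was 0.82. The log2 difference of 0.75 ± 0.44 (95% interval −0.44 to 1.94; limma adjusted p = 0.252) was not called, and it ranged from 0.17 to 1.33 with 1 array left out.

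**Figure D2:**
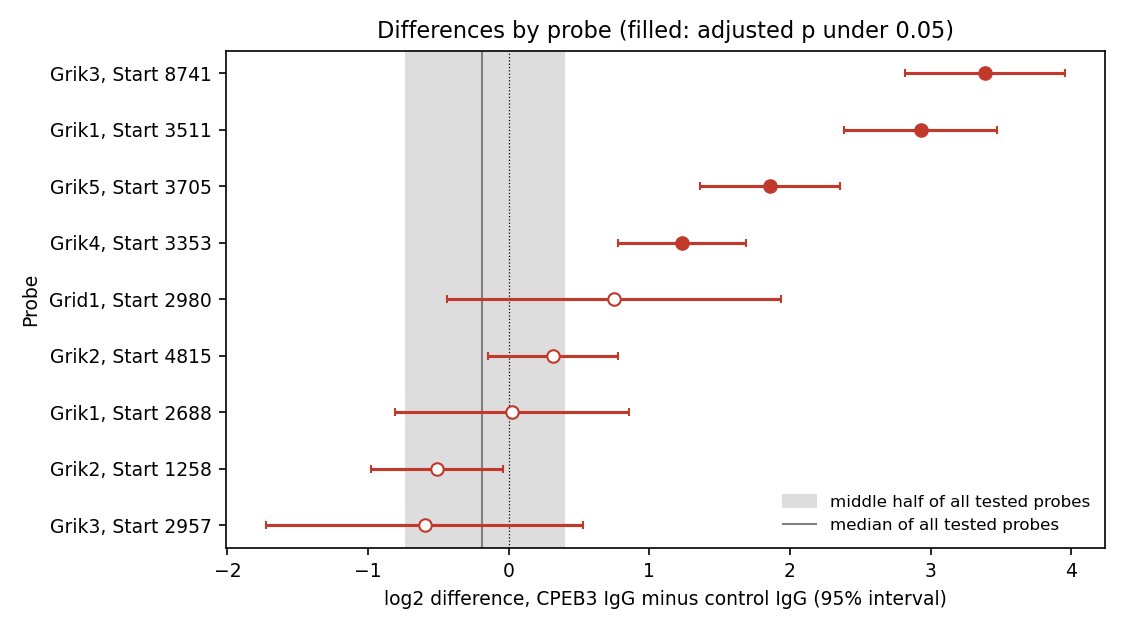
Log2 difference, CPEB3 IgG minus control IgG, at each probe with its 95% interval (x axis); filled points have limma adjusted p under 0.05. The grey line is the median of all tested probes, −0.19, and the band spans their interquartile range, −0.73 to 0.39. The intervals of Grik3 Start 8741, Grik1 Start 3511, Grik5 and Grik4 lie wholly above the band, and all other intervals reach into it.

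Taking the brightest probe of each gene, the order of the differences was Grik3, Grik1, Grik5, Grik4, Grid1 and Grik2. Brightness was the mean level over all 4 arrays, those with CPEB3 IgG included. For Grik2 the choice was close, at −2.49 for Start 4815 against −2.51 for Start 1258. With control IgG alone Start 1258 was the brighter, at −2.25 against −2.64, and its difference was −0.51. Neighbours in the order of the differences were set against each other within arrays, with intervals not adjusted over the 5 pairs. The order was taken from these same 4 arrays, so every step is positive by construction. The intervals do not allow for that ordering and do not test it. Grik3 exceeded Grik1 by 0.46 (95% interval −0.16 to 1.07), Grik5 exceeded Grik4 by 0.63 (−0.022 to 1.27), Grik4 exceeded Grid1 by 0.48 (−0.68 to 1.64) and Grid1 exceeded Grik2 by 0.44 (−1.05 to 1.92). Each of these intervals includes 0. Grik1 exceeded Grik5 by 1.07 (0.36 to 1.78), the 1 step whose interval does not. The probes also differ in brightness, and its part in this order was not tested.

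The 3 genes with 2 probes allow a test within a gene. For each array the log2 signal of the probe with the lower Start was subtracted from that of the probe with the higher Start. This removes any scaling by 1 factor per array (not quantile scaling, with which the Grik3 and Grik1 changes given next were 3.57 and 2.75), and limma tested whether the result changed with the antibody, over all 21349 pairs of probes that share a gene name. Only the change is read, since the size of such a value on 1 array depends on how each probe hybridises.

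For Grik3, whose 2 probes lie 5784 nt apart on the same transcript record, the subtraction gave 7.93 and 6.93 with CPEB3 IgG against 3.99 and 2.91 with control IgG. The change was 3.98 ± 0.55 (95% interval 2.46 to 5.51; limma adjusted p = 0.0368), and 0.197% of all pairs changed by at least as much in this direction. For Grik1 the values were 3.34 and 3.79 with CPEB3 IgG against 1.03 and 0.28 with control IgG, a change of 2.91 ± 0.36 (95% interval 1.91 to 3.91; limma adjusted p = 0.0334), reached by 1.11% of pairs. For Grik2 they were 0.45 and 0.41 against −0.33 and −0.45, a change of 0.82 ± 0.20 (95% interval 0.28 to 1.37; limma adjusted p = 0.0829), reached by 22.1% of pairs. The groups did not overlap for any of these genes, which was so for 60.3% of all pairs, and 2 of the 3 changes were called. Over all pairs 9.31% were called, 7.04% with the larger difference at the higher Start and 2.27% with the smaller.

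These pair calls rest on all 4 arrays. With any 1 array left out, 0 of the 21349 to 21386 pairs tested passed limma's adjusted test, the Grik ones included, although 4317 to 5850 had an unadjusted p under 0.05. The Grik3 change was then 3.44 to 4.52 with limma adjusted p from 0.0806 to 0.179, and the Grik1 change 2.53 to 3.28 with limma adjusted p from 0.0781 to 0.177. With no filter on dim probes 0 pairs passed either (limma adjusted p = 0.127 for both Grik1 and Grik3; 7885 pairs at an unadjusted p under 0.05), while with the filter that asks for all 4 arrays the Grik2 change passed too, at the same 0.82 (limma adjusted p = 0.0474). In the Grik1 and Grik3 pairs the probe at the lower Start was dim on every array, and the part of that in the change was not tested.

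**Figure D3:**
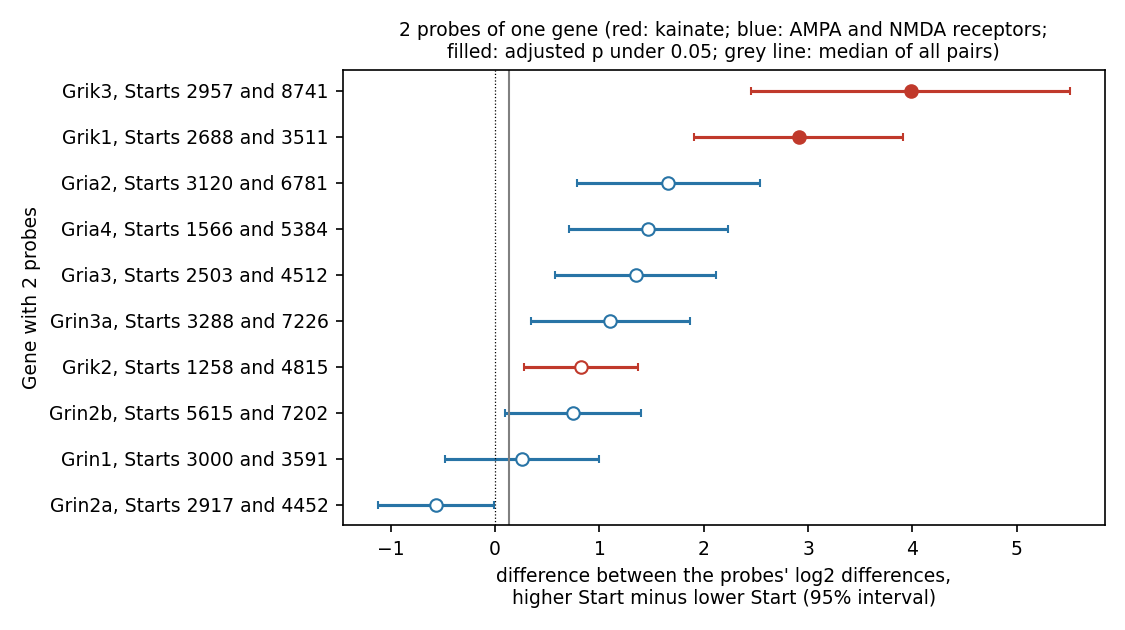
Change with the antibody in the difference between 2 probes of one gene, higher Start minus lower Start (x axis: log2, with 95% interval), for kainate receptor genes (red) and AMPA and NMDA receptor genes (blue). Filled points have limma adjusted p under 0.05 and the grey line is the median of all pairs, 0.14. Grik3 and Grik1 have the largest values, at 3.98 and 2.91, and 9 of the 10 genes lie above 0.

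The other ionotropic receptor genes with 2 probes leaned the same way without passing the test. Of 7 such genes 0 were called, and 6 had a larger difference at the higher Start, with a median change of 1.11. Over all pairs 58.6% lay above 0, and over pairs on 1 RefSeq mRNA record 75.6%. The probes of Gria2, Gria4, Grin1 and Grin3a are on different records, so that their Starts, like those of Grik1 and Grik2, need not count from a shared origin. Gria2 changed by 1.66 (limma adjusted p = 0.0562), Gria4 by 1.47 (0.0555) and Gria3 by 1.35 (0.0641), while Grin2a gave −0.57 (0.164). Across the array, 5345 pairs sit on 1 RefSeq mRNA record, and 15.1% of them had a larger difference at the higher Start by the same test. That share grew with the distance between the probes, from 6.65% of 2782 pairs under 1000 nt apart to 21.3% of 1834 pairs 1000 to under 3000 nt apart, 29.7% of 505 pairs 3000 to under 5000 nt apart and 37.1% of 224 pairs at least 5000 nt apart. The Grik3 pair falls in the last class, whose median change was 1.22, beside 3.98 for Grik3.

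The position and base composition of a probe also went with its own difference over the array, and the kainate and delta probes can be read against that. Among tested probes on RefSeq mRNA records, the share called higher was 8.70% for Starts under 1000, 16.7% from 1000, 25.5% from 2000, 32.7% from 3000, 40.2% from 4000 and 45.7% from 6000 on. None of the 4 probes with a Start under 3000 was called (Grik2 1258, Grik1 2688, Grik3 2957 and Grid1 2980), while 4 of the 5 with a Start above 3000 were, Grik2 at 4815 being the exception. By T content the share rose from 7.35% of probes with 0 to 8 T to 17.6% with 15 to 17 T, 26.2% with 18 to 20 T and 40.6% with at least 24 T. Grik3 at Start 8741 is in the top class of both scales. Grik4 is in a class of low T, 12 to 14, of which 12.2% were called higher.

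**Figure D4:**
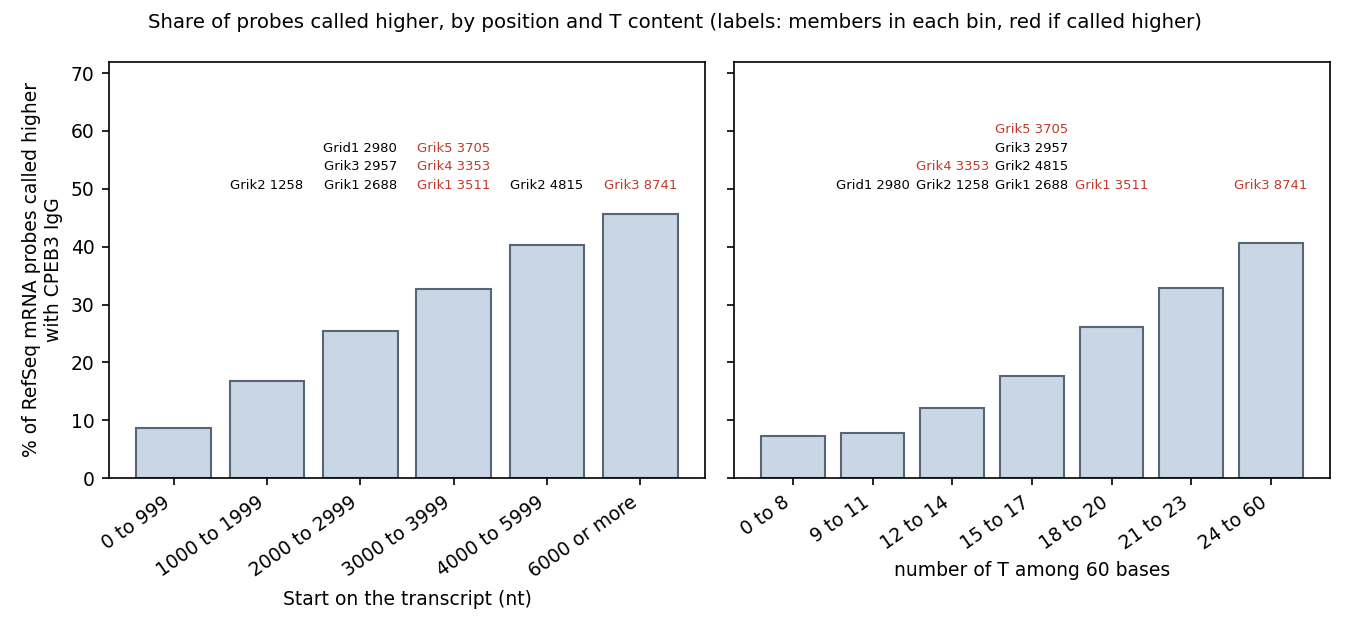
Share of tested RefSeq mRNA probes called higher with CPEB3 IgG (y axis, percent) by Start on the transcript in nt (left) and by the number of T among 60 bases (right), with the kainate and delta probes named above their class, in red where called higher. The share rises from 8.70% to 45.7% with Start and from 7.35% to 40.6% with T. The Grik1 probe at Start 2688 is placed by its own record, which is not RefSeq.

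Brightness went with the calls as well, in both directions. Of RefSeq mRNA probes with a mean level under −3.5, 6.45% were called higher, against 31.0% of those between 0 and 2 and 35.6% of those between 2 and 4. In the same classes 12.8%, 22.0% and 21.9% were called lower. From 4 on, 31.4% were called higher and 25.5% lower. The mean level includes the CPEB3 IgG arrays, so the difference of a probe enters its own class. Of the 5 probes not called, Grik1 at Start 2688 and Grik3 at Start 2957 are in the dimmest class and the other 3 lie between −3.5 and −2. The separate parts of Start, T content and brightness in the calls were not tested.

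The probes were searched on both strands for TTTTT, for TTTTAT, the hexamer known as the cytoplasmic polyadenylation element, and for its variant TTTTAAT. The first of these, the run of 5 T, is in the sense strand of Grik3 at Start 8741 and of Grik5, as the stretches printed above show, where 10.6% of all tested probes hold it. Of probes with it 31.1% were called higher, against 14.0% without it. Neither TTTTAT, in 3.71% of tested probes, nor TTTTAAT, in 0.901%, is in any of the 9 probes, and none of the 3 is there as the reverse complement. A motif of 1 kind can overlap another here, since a run of T can be followed by AT, and a probe covers only 60 bases of its transcript.

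The most similar families on the array are the AMPA receptor genes (Gria1 to Gria4) and the NMDA receptor genes (Grin). Of the 19 probes of other ionotropic glutamate receptor genes, 5 were called higher (26.3%), 1 lower (5.26%) and 13 were not called, with a median log2 difference of 0.27. Over all tested probes the shares were 15.8% and 18.9% and the median was −0.19. AMPA receptors, which carry fast excitation, gave 4 of 7 probes higher and 0 lower, 1 probe for each gene. Gria3 at Start 4512 read 3.67 and 3.91 with CPEB3 IgG against 1.77 and 1.64, a difference of 2.08 ± 0.18 (limma adjusted p = 0.00539), and Gria2 at Start 6781 read 1.30 and 1.34 against −0.28 and −0.081, a difference of 1.50 ± 0.17 (limma adjusted p = 0.00727). The remaining calls, named after their values were seen, were Gria4 at Start 5384 (1.32 ± 0.17, limma adjusted p = 0.00886, lost without CPEB3 IgG replicate 1 at 1.23) and Gria1 (0.72 ± 0.18, limma adjusted p = 0.0427, lost with any array left out, at 0.59 to 0.84). The Gria1 call was also lost with quantile (0.56), spike-in (1.43) and no scaling (0.68), and with no filter on dim probes. The other probes of Gria3 (Start 2503, 0.73 ± 0.32), Gria2 (Start 3120, −0.16 ± 0.31) and Gria4 (Start 1566, −0.15 ± 0.20), all at lower Starts, were not called.

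NMDA receptors, the coincidence detectors of synaptic plasticity, gave 1 of 11 probes higher and 1 lower, 9.09% each. Both shares are below those of all tested probes, 15.8% and 18.9%. The higher one was Grin3a at Start 7226, which read 1.65 and 1.62 with CPEB3 IgG against −0.35 and −0.23 with control IgG, a difference of 1.93 ± 0.16 (limma adjusted p = 0.00534). Grin3b, named after its value was seen, was the lower one. It was not well above background on either CPEB3 IgG array and passed the filter through the control IgG arrays only. Its means were −4.97 with CPEB3 IgG and −4.09 with control IgG (limma adjusted p = 0.0470, from a fit that includes the undetected values). With the dimmest detected signal of each CPEB3 IgG array in their place, the fall was 1.52-fold, a figure without an interval that the adjusted p does not test. The control IgG signals were themselves only 1.42 and 1.58 times the dimmest detected one. The Grin3b call was lost with any 1 array left out, at −0.69 to −1.05, and in most other settings. Among these were normexp (−0.19), quantile (−0.47), median (−0.58) and spike-in scaling (−0.16). It was kept with the replicate block and with the brightest probe per gene. The 1.52-fold figure was taken in the main setting only.

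Auxiliary subunits and binding partners of kainate and delta receptors were 18 genes with 37 probes, of which 36 were tested and the probe of Cbln3, a cerebellin of the cerebellum, was not well above background on enough arrays. Of the 36, 9 were called higher, 8 lower and 19 were not called, with a median of 0.014. Both shares are above those of all tested probes, 15.8% higher and 18.9% lower, where the median was −0.19. The largest falls among the 36 were 2 probes of Sdcbp, which encodes the PDZ protein syntenin. Sdcbp at Start 275 read −1.94 and −1.96 against 0.46 and 0.36, a difference of −2.36 ± 0.16 (limma adjusted p = 0.00527). Sdcbp at Start 1716 read 1.16 and 0.41 against 4.68 and 2.62, a difference of −2.87 ± 0.76 (limma adjusted p = 0.0484) with an SD of 1.46 between the control arrays, and leaving out CPEB3 IgG replicate 1 (−3.24) or 2 (−2.49) ended its call. Leaving out a control array moved it further with the call kept, to −1.83 without replicate 1 and −3.90 without replicate 2. The Sdcbp probe at Start 2493 gave 0.085 ± 0.21 (limma adjusted p = 0.777). Each Sdcbp probe is on a different record, so their Starts need not count from a shared origin and do not order them. By mm9 position on the plus strand of chr4 the order is Start 275 (6308184), Start 2493 (6323210) and Start 1716 (6335477).

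The genes closest in function were looked up after their values were seen. Neto1 and Neto2 encode the transmembrane auxiliary subunits that slow kainate receptor kinetics. Neto1 at Start 2627 read 3.30 and 3.08 with CPEB3 IgG against 2.28 and 2.27 with control IgG, a difference of 0.92 ± 0.17 (limma adjusted p = 0.0209), and at Start 3668 of another record it gave −0.39 ± 0.20 (limma adjusted p = 0.194). Neto2 at Start 4565 read 0.66 and 0.41 against −0.37 and −0.22, a difference of 0.83 ± 0.18 (limma adjusted p = 0.0300), and at Start 1757 gave 0.57 ± 0.16 (limma adjusted p = 0.0515). With any 1 array left out, neither gene kept a call, at 0.80 to 1.03 for Neto1 at Start 2627 and 0.71 to 0.95 for Neto2 at Start 4565. Both calls were also lost with no scaling (0.88 for Neto1 and 0.80 for Neto2) and with no filter on dim probes. Cbln1, the secreted cerebellin that binds delta receptors, was called higher at both of its probes, by 1.76 ± 0.27 (limma adjusted p = 0.0134) at Start 2339 and 1.03 ± 0.27 (limma adjusted p = 0.0465) at Start 2251. Both Cbln1 probes are on different records. The call at Start 2251 ended with CPEB3 IgG replicate 1 (0.85) or 2 (1.22) or control IgG replicate 2 (0.76) left out, and with quantile scaling (1.02), with no scaling (1.00) and with no filter on dim probes. At Start 2339 the difference was 0.61 with normexp background correction, and still passed.

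By distance between their 4 values, each taken from the mean of its probe, the nearest of 15602 genes were found for the brightest probe of each receptor gene. With only 4 arrays this mostly matches the size of the difference. For Grik3 they were Fzd1 (distance 0.103 log2 units, difference 3.33) and F3 (0.132, difference 3.51), and for Grik1 Cdc42ep3 (0.104, difference 3.01) and Cpeb3 itself (0.107, difference 2.95). Grik5 lay nearest to Rplp2 (0.0518) and Ctdspl (0.0617), and Grik4 to Ebag9 (0.0331) and Maf1 (0.0366). Grik2, read at Start 4815 only, lay nearest to Tmem41a (0.0352) and Rab9b (0.0397). Grid1, with its uneven replicates, lay nearest to Ccdc147 (0.0834) and then Olfr10 (0.247).

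**Figure D5:**
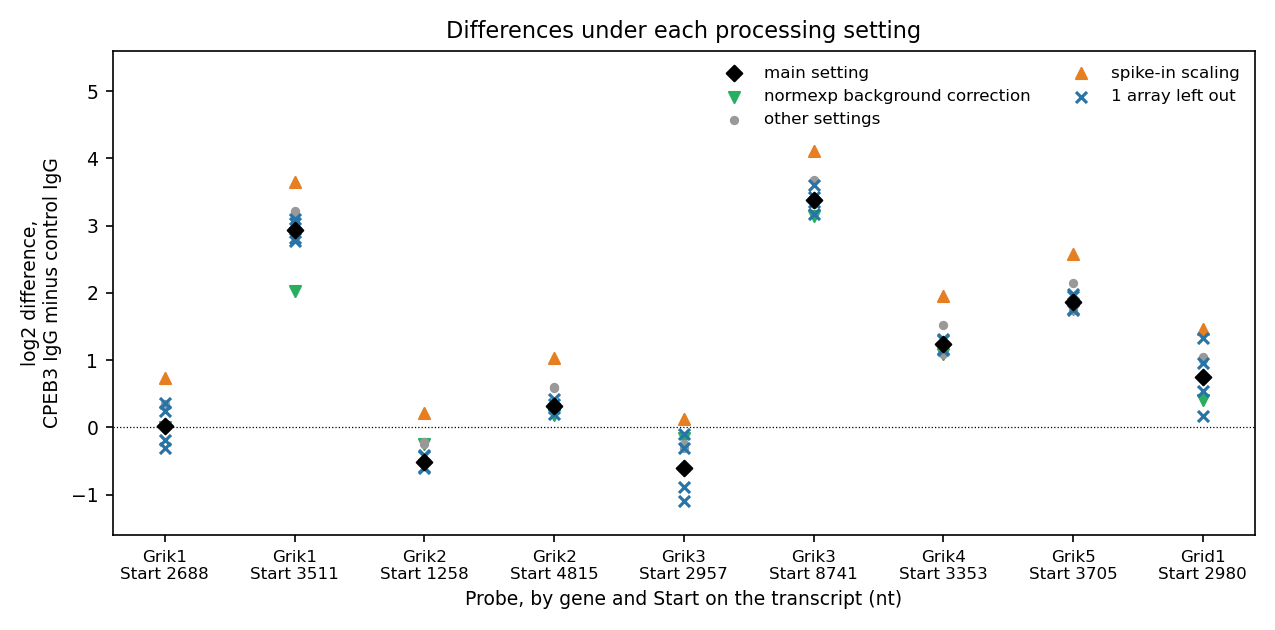
Log2 difference at each of the 9 probes (y axis, CPEB3 IgG minus control IgG) in the main setting (diamond), with normexp background correction, with spike-in scaling, with 1 array left out (crosses) and in other settings (grey). Grik1 Start 3511 (2.02 to 3.65), Grik3 Start 8741 (3.15 to 4.10), Grik5 (1.74 to 2.57) and Grik4 (1.09 to 1.95) stayed above 0 throughout. Spike-in scaling takes 1 factor per array, so it raised all 9 values, like those of every other probe, by the same amount.

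For the series as a whole, 68.0% to 73.5% of probes were well above background on an array, 0 spots were saturated, and across tested probes the correlation of the replicates was 0.986 for CPEB3 IgG and 0.977 for control IgG. The arrays were on 1 slide and in 1 scan, and the first number of an array's place on that slide is 1 for control IgG and 2 for CPEB3 IgG, so the effect of that place cannot be told apart from that of the antibody. The share of calls that are higher depends on scaling: it was 45.5% with the 75th percentile, 53.8% with quantile, 66.2% with median and 87.0% with spike-in scaling. Markers of the labelled tissue were present, with all 4 neuronal and all 5 excitatory neuron markers well above background on every array. Of the 3 cerebellum markers Gabra6 and Cbln3 were not. The 5 inhibitory neuron markers (0 higher, 2 lower) had a summed level, in multiples of the 75th percentile, of 65.4 to 86.8 with CPEB3 IgG against 118 to 121 with control IgG. The 4 astrocyte markers (1 higher, 1 lower) had 47.4 to 82.6 and 33.9 to 42.7, and the 2 blood markers (0 higher, 1 lower) 21.0 to 28.7 and 41.6 to 56.4. Sums were also apart for excitatory neuron (25.7 to 32.7 and 23.8 to 24.9) and endothelium markers (3.38 to 4.13 and 2.65 to 2.73). The same held for microglia (13.2 to 18.6 and 20.0 to 21.9) and cerebellum markers (0.644 to 0.690 and 0.831 to 0.889). Those of neurons and oligodendrocytes overlapped. Of single tested probes 71.3% did not overlap, and the brightest marker weighs most in a sum. The part of these markers in the results above was not tested.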

How the data were processed

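Per the file headers, the scans were read with Agilent Feature Extraction 10.5.1.1, in 1 colour. The deposited processed intensity is the spot brightness after background subtraction, not normalised between arrays, per the file headers. Probe coordinates are on mm9, per the file headers. Which test the authors ran is not given here.

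Control spots (3671 of 62976) and spots marked as outliers (123 to 223 per array) were left out, and spots of a probe were averaged. Each log2 processed signal was taken relative to the array's 75th percentile (507 and 353 units for CPEB3 IgG, 443 and 425 for control IgG). A probe was tested if 2 or more of the 4 arrays had it well above background (40616 probes), and 63 probes lacked a value on an array. Differences were fitted with lmFit and eBayes of limma 3.58.1 (R 4.3.3), without a block, and with Benjamini-Hochberg adjustment over all probes, or over all probe pairs of one gene, at a threshold of 0.05. The number of arrays limits the precision. RefSeq names come from a GRCm38 table used for names only.

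The genes, the lists and the tests were chosen with earlier results of these data known. The text names every probe of the 6 genes and, from each list, the 3 called probes with the largest difference. It also names the 2 nearest genes of each receptor gene by Euclidean distance, over genes with a RefSeq mRNA record and well above background on all 4 arrays. Some items that the rule or the lists take are not reported here. Others are said to be chosen after their values were seen. Alternatives were normexp background correction with offset 50 (from the deposited mean and local background intensities), quantile, median, spike-in and no scaling, other filters on dim probes, an intensity trend, the brightest probe per gene, the replicate block, a threshold of 0.01, and each array left out.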

Additional observations from a re-analysis of the deposited data

How the results depend on the processing

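The 4 calls among the kainate and delta probes became 3 at an adjusted p threshold of 0.01 and without either CPEB3 IgG array, with Grik4 lost each time, and stayed 4 in the other settings. Grik1 at Start 3511, Grik3 at Start 8741 and Grik5 passed in all 15 settings, with a highest adjusted p of 0.0454 in limma's test. Signs turned at uncalled probes: with spike-in scaling at Grik2 Start 1258 (0.21), Grik3 Start 2957 (0.12), Neto1 Start 3668 (0.33), Gria2 Start 3120 (0.56) and Gria4 Start 1566 (0.56), with median scaling at Gria2 Start 3120 (0.13) and Gria4 Start 1566 (0.14), without scaling at Grik1 Start 2688 (−0.014) and with quantile scaling at Sdcbp Start 2493 (−0.046) and Gria4 Start 1566 (0.018). With 1 array left out, values on both sides of 0 were met at Grik1 Start 2688 (−0.31 to 0.36), Sdcbp Start 2493 (−0.13 to 0.30), Gria2 Start 3120 (−0.54 to 0.22) and Gria4 Start 1566 (−0.35 to 0.046). The cause was not tested.

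Of all tested probes 14111 were called. That count was 7441 with spike-in scaling (6475 higher, 966 lower, against 6423 and 7688), 9352 with no filter on dim probes, 4750 at a threshold of 0.01, and 4425 to 10052 with 1 array left out. The median of all tested probes moved from −0.19 to 0.0018 with quantile, 0.098 with median and 0.52 with spike-in scaling. The 6 calls of other ionotropic receptors became 3 to 5 with 1 array left out (3 without CPEB3 IgG replicate 1). The 17 of auxiliary and partner probes became 11 with spike-in scaling, 8 with no scaling, 7 with no filter, 4 at a threshold of 0.01, 8 with the brightest probe per gene, and 5 to 9 with 1 array left out.

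Replicate numbers are shared by the groups, but the labels tie them to nothing, and 2 pairs do not show whether they pair the arrays (correlation of same-numbered deviations 0.356). With the replicate block, 15848 probes and 4 of the 9 kainate and delta probes were called. Among probe pairs the block left 0 of 21349 called in limma's adjusted test (6756 at an unadjusted p under 0.05, against 1988 called and 6349 before), so 0 of the 2 Grik pairs (3 at an unadjusted p under 0.05), with adjusted p of 0.0637 for Grik1 and 0.0617 for Grik3. Pair calls over all genes and in Grik genes were also 0 at a threshold of 0.01 (6349 and 3 at an unadjusted p under 0.05), 0 without the filter on dim probes (7885 and 3) and 0 with 1 array left out (4317 to 5850, and 2 to 3), and 3479 over all genes with normexp. A slide block was not run, since there was 1 slide.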
